A study of Mus musculus with 44 samples.

Results

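The genes that lie on mouse chromosome 11 around Timp2, the gene mutated in the MT2 mice, were followed in lungs of 6 groups. Neighbours were chosen by position and by the level over all libraries: a gene counted when its start lay within 10 Mb of the start of Timp2 and its value reached 10 in at least 5 of the 30 libraries, with Timp2 itself left out. The window held 274 other genes in the deposited table, and 217 of them passed, of 26940 genes in the whole table. Of the 217 neighbours, 194 were protein coding, 132 started below Timp2 in coordinate and 85 started above it, up to the last one at 3.4 Mb. This choice did not read the genotype, and no neighbour reached 10 in libraries of 1 genotype only. The 57 genes left out included 39 that never reached 10. Just outside the level rule were Apoh, Otop3, Gm11739, Card14 and Sectm1a, each with 10 or more in exactly 4 libraries, while no neighbour had exactly 5. Just inside the distance rule was Cep112 at 9.88 Mb, and just outside was Prkca at 10.37 Mb.

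The series asks how a Timp2 mutation and daily recombinant human TIMP2 (rTIMP2) bear on lung tumours in C57BL6j mice. RNA came from lung pieces with polyA selection, and LL/2-Luc2 cells, Lewis lung carcinoma cells that carry luciferase, were placed in the airways at 1 M cells per mouse. The groups, with 5 libraries each, were tumour-free MT2 lungs and tumour-free WT lungs, MT2 and WT lungs with tumour cells and the vehicle HBSS, and MT2 and WT lungs with tumour cells and rTIMP2 at 200 µg per kg, injected daily into the peritoneum. Every group is on the strain C57BL6j per the labels. The labels give neither ages nor what the MT2 allele changes in the gene, how it was made and in which strain, or how often it was backcrossed.

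TIMP2 is a secreted protein that blocks matrix metalloproteinases. Genes near a mutated gene are inherited with it, because recombination between close positions is rare, so a stretch of chromosome that entered a mouse line with a mutation can stay in it through backcrossing. The stretch around Timp2 carries the Cd300 cluster, a family of activating and inhibitory lipid-binding receptors of myeloid cells, as well as genes of metabolism, cell division and cilia. An effect of the Timp2 mutation and an effect of linked variants on the same chromosome cannot be told apart in a comparison of MT2 with WT mice.

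The stretches just before the start of 3 neighbours are shown, because Smim6 had the largest fall in tumour-free MT2 lungs and Cd300ld and Cd300ld5 are near-copies whose tumour-free values lay apart in opposite directions. They come from RefSeq on GRCm38.p6, where 157 of 216 neighbour names had an entry. They are written 5′ to 3′ and stop where the deposited gene begins. They are chr11:115911767-115912016 on the plus strand for Smim6, chr11:114989923-114990136 on the minus strand for Cd300ld and chr11:115037770-115037940 on the minus strand for Cd300ld5. None of them overlaps an annotated exon.
Smim6: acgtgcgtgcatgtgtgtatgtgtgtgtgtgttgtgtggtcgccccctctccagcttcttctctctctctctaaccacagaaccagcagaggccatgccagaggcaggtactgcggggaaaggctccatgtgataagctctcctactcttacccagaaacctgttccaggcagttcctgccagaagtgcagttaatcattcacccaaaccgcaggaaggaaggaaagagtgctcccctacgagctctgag
Cd300ld: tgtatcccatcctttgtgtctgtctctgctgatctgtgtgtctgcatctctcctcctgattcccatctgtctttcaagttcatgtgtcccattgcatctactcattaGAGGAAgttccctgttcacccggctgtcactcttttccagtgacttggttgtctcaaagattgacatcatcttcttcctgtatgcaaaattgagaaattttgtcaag
Cd300ld5: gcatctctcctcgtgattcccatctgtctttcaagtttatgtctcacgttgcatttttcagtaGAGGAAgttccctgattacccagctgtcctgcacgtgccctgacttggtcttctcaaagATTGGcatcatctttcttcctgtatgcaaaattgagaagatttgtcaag

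Capitals mark matches to 4 motifs searched on both strands of the 250 bases before each start. They were the TATA box with the letters TATAAA, the CCAAT box with CCAAT, the GC box with GGGCGG and, as a core bound by ETS factors such as the myeloid factor PU.1, the letters GAGGAA. The ETS core letters were found 143 bases before the RefSeq start of Cd300ld and 187 bases before that of Cd300ld5, and CCAAT was found on the other strand of Cd300ld5, where it reads ATTGG. The letters GAGGAA are in 23.3% of all 32851 RefSeq promoter windows, CCAAT in 33.8%, GGGCGG in 32.7% and TATAAA in 12.4%. The Smim6 window held none of the 4 in these letters. The windows of Cd300ld and Cd300ld5 are 87.4% identical over 206 aligned bases, and their transcripts are 86.7% identical over 814 aligned bases. Cd300ld5 is 99.9% identical to Cd300ld4 and 98.9% identical to Cd300ld3, so the individual values of Cd300ld3 and Cd300ld5 are uncertain where reads could fit more than 1 copy.

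Estimated depth ran between 10.68 and 17.14 M reads per library, and values are the authors' normalized counts. The 6 lung markers summed to 548002 to 595840 in tumour-free MT2 lungs and to 568007 to 638392 in tumour-free WT lungs, against 11181 to 240164 in MT2 lungs with HBSS tumours and 31019 to 272468 in WT lungs with HBSS tumours. The luciferase reporter was listed at 0 in the 10 tumour-free lungs and lay between 39.3 and 70.9 in the 10 lungs with HBSS tumours. In the rTIMP2 groups the reporter was listed at 0.983 in MT2 replicate 2 and at 0 in WT replicates 2, 3 and 5, so treated lungs differ in how much tumour RNA they hold. The median coefficient of variation of the neighbours was 8.25% in tumour-free MT2 lungs and 9.1% in tumour-free WT lungs, against 23 to 32% in the 4 tumour groups. The labels do not give the sex of the mice, and RNA of sex-linked genes moved with tumour state. Ddx3y, a Y-linked gene, read 123 to 525 in MT2 lungs and 209 to 672 in WT lungs with HBSS tumours, against 0.910 to 2.72 in MT2 lungs and 0.958 to 5.78 in WT lungs without tumours. In the 4 treated libraries with a reporter under 1 it read 1024 to 1321, and Xist, the RNA of the inactive X, read 42.2 to 119 there, against 4118 to 6657 in the 10 tumour-free lungs. In lungs with HBSS tumours, where host and injected cells mix, Xist read 1153 to 8305 in MT2 lungs and 2399 to 6691 in WT lungs. The 10 tumour-free lungs thus read as female and the 4 treated lungs as male. Between HBSS tumour lungs and tumour-free lungs, tumour state and the sex of the mice cannot be told apart. The same holds for every difference in the genotype effect between those lungs. In lung pieces, fewer cells of a type and less RNA per cell cannot be told apart.

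Timp2 lies on the minus strand at chr11:118301069-118355740 of mm10. In tumour-free lungs it read 6237, 5948, 6208, 5950 and 6184 in MT2 lungs, against 10316, 10546, 10598, 10147 and 11489 in WT lungs. The groups did not overlap, and the log2 fold change was -0.80 ± 0.05 (SE; limma with Benjamini-Hochberg adjustment, adjusted p = 1.7e-07). In lungs with HBSS tumours Timp2 read 8697, 10260, 11992, 6582 and 6512 in those labelled MT2, against 6770, 6541, 5753, 7781 and 7656 in those labelled WT, with a log2 fold change of 0.32 ± 0.21 (limma adjusted p = 0.77). The lower MT2 level of the tumour-free lungs was therefore not seen in the HBSS libraries, which hold transcripts of host and injected cells together. In treated lungs it read 5487 to 9597 in those labelled MT2 and 5809 to 10119 in those labelled WT (-0.32 ± 0.23, limma adjusted p = 0.36). A total over the whole gene checks a genotype label only where the mutation lowers that total, and the labels do not give the mutated part.

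Some tumour libraries stood apart from their group at neighbours described here. The library labelled MT2 HBSS replicate 5 had high Smim6, Smim5 and Cd300ld values and low Cd300ld3, Cd300ld5 and BC018473 values. Those labelled WT HBSS replicates 4 and 5 had low Smim6 values. Lung content differed too. The lung marker Sftpc read 97273 in MT2 HBSS replicate 5, against 4598 to 39572 in the rest of its group. It read 34905 and 16354 in WT HBSS replicates 4 and 5, in a group of 16354 to 83334. In tumour-free MT2 lungs Sftpc read 171137 to 195966 and Smim6 23.7 to 35.6. The part of lung content was not tested. The library labelled MT2 HBSS replicate 5 lay in the WT range at Smim6, while those labelled WT HBSS replicate 4 and WT rTIMP2 replicate 2 had BC018473 values of 183 and 716, within the range of the MT2 libraries. Tumour-free WT replicates 1 to 4 had high BC018473 values too, at 163, 206, 243 and 166. WT rTIMP2 replicate 2 read 153 at Smim6 and 9998 at Timp2, both above every treated MT2 value. Whether the genotype labels of the tumour libraries named here are right was not tested, and every genotype value in tumour lungs depends on them. The main results in HBSS tumours are also given without MT2 replicate 5, or without it and WT replicates 4 and 5. These 3 were picked after their values at these neighbours were seen, so fits without them give no independent support.

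Smim6, which codes for a small predicted membrane protein, was the neighbour with the largest difference in tumour-free lungs. It lies at chr11:115912017-115913920 on the plus strand, 2389 kb below Timp2. In tumour-free lungs it read 29.4, 27.6, 25.4, 23.7 and 35.6 in MT2 lungs, against 178, 151, 120, 173 and 279 in WT lungs. The highest MT2 value was far under the lowest WT value. The log2 fold change was -2.58 ± 0.19 (SE, n = 5 each; limma adjusted p = 2.2e-06), a larger change than that of Timp2 itself.

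Smim6 was the single neighbour called of 209 tested in tumour-free lungs, where 4 of 16774 genes were called in all (0.0238%). The other calls were Timp2, Loxl2 and Serpinh1, the last 2 on other chromosomes. The Smim6 call was kept in each of 10 fits that left out 1 library, at adjusted p values between 6.1e-07 and 3.5e-05. It was lost only when all 6 groups shared 1 spread estimate, where the adjusted p was 1 for Smim6 and for Timp2 and no neighbour was called.

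In lungs with HBSS tumours Smim6 read 3.06, 0, 3.87, 7.61 and 154 in MT2 lungs, against 149, 105, 87.3, 29.3 and 17.1 in WT lungs. The 4 low MT2 values lay under every WT value, and MT2 replicate 5 lay above all of them. The log2 fold change was -2.97 ± 1.12 (limma adjusted p = 0.55), and without MT2 replicate 5 it was -4.05 (adjusted p = 0.13). In the fit without MT2 replicate 5, Smim6 passed the level filter only through the WT lungs, so that fit does not test its direction. Without WT replicates 4 and 5 as well, Smim6 was under the level filter and had no fold change. In rTIMP2-treated lungs Smim6 read 8.83, 37.4, 17.0, 30.1 and 29.7 in MT2 lungs, against 172, 153, 193, 182 and 322 in WT lungs. These groups did not overlap, although the log2 fold change of -3.11 ± 0.40 did not pass the threshold over all genes (limma adjusted p = 0.18). Without MT2 rTIMP2 replicate 2 it was -3.29 and passed (adjusted p = 0.0206), in a fit that called 34.4% of all genes.

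Averaged over the 3 conditions, Smim6 had a log2 fold change of -2.89 ± 0.45 (limma adjusted p = 0.011), and it was the only gene called of 18369 tested (0.00544%), neighbours and others together. An unadjusted p under 0.05 was held there by 42 of 217 neighbours (19.4%), beside 23.4% of all genes. Without the rTIMP2 groups the average was -2.78 (adjusted p = 0.22), and without the 4 treated libraries with a reporter under 1 it was -2.90 (adjusted p = 0.052). In both of these fits Cd300ld was called in its place. The genotype difference of Smim6 differed between tumour and tumour-free lungs by -0.39 ± 1.24 on the log2 scale (limma adjusted p = 0.95), an interval too wide to show whether it changed, and without MT2 HBSS replicate 5 by -1.47 (adjusted p = 0.37). In the subcutaneous part of the series, where 14 lungs came from WT mice that carried the same cells under the skin with HBSS or rTIMP2 from day 0 or 7, Smim6 lay between 210 and 364 in a separately normalized table, with a median of 267.

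Smim6 and Smim5, a second gene for a small membrane protein, lie 5747 bases apart and inside the span of Recql5, a RecQ-family DNA helicase gene on the other strand. Neither shares an exonic base with Recql5. The strand of counting is not given in the sources used here, so reads of Recql5 introns could be counted in neither, one or both. Smim5 read 66.4, 57.1, 84.3, 81.0 and 83.5 in tumour-free MT2 lungs, against 123, 91.1, 117, 138 and 135 in tumour-free WT lungs. The groups did not overlap, with a log2 fold change of -0.69 ± 0.14 that missed the threshold (limma adjusted p = 0.17). Recql5 averaged 243 ± 18.4 in tumour-free MT2 lungs and 234 ± 17.7 in tumour-free WT lungs (SD, n = 5 each), with a log2 fold change of 0.05 ± 0.08 (limma adjusted p = 0.87).

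Per kb of exon, the tumour-free mean of Smim6 was 29.0 in MT2 lungs and 184 in WT lungs, and that of Smim5 was 45.2 in MT2 lungs and 73.4 in WT lungs. On that scale Smim6 ranked 58 among the 217 neighbours in WT lungs. In treated lungs Smim5 had a log2 fold change of -2.03 ± 0.63 (limma adjusted p = 0.26), where MT2 replicate 2, whose reporter was listed at 0.983, had 85.5 and the other 4 MT2 lungs 7.85 to 25.4. Values in treated WT lungs ran between 35.1 and 167, and the 6 lung markers summed to 51736 to 571163 in treated MT2 lungs and 129700 to 638834 in treated WT lungs. The part of that difference in the Smim5 result was not tested.

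**Figure D1:**
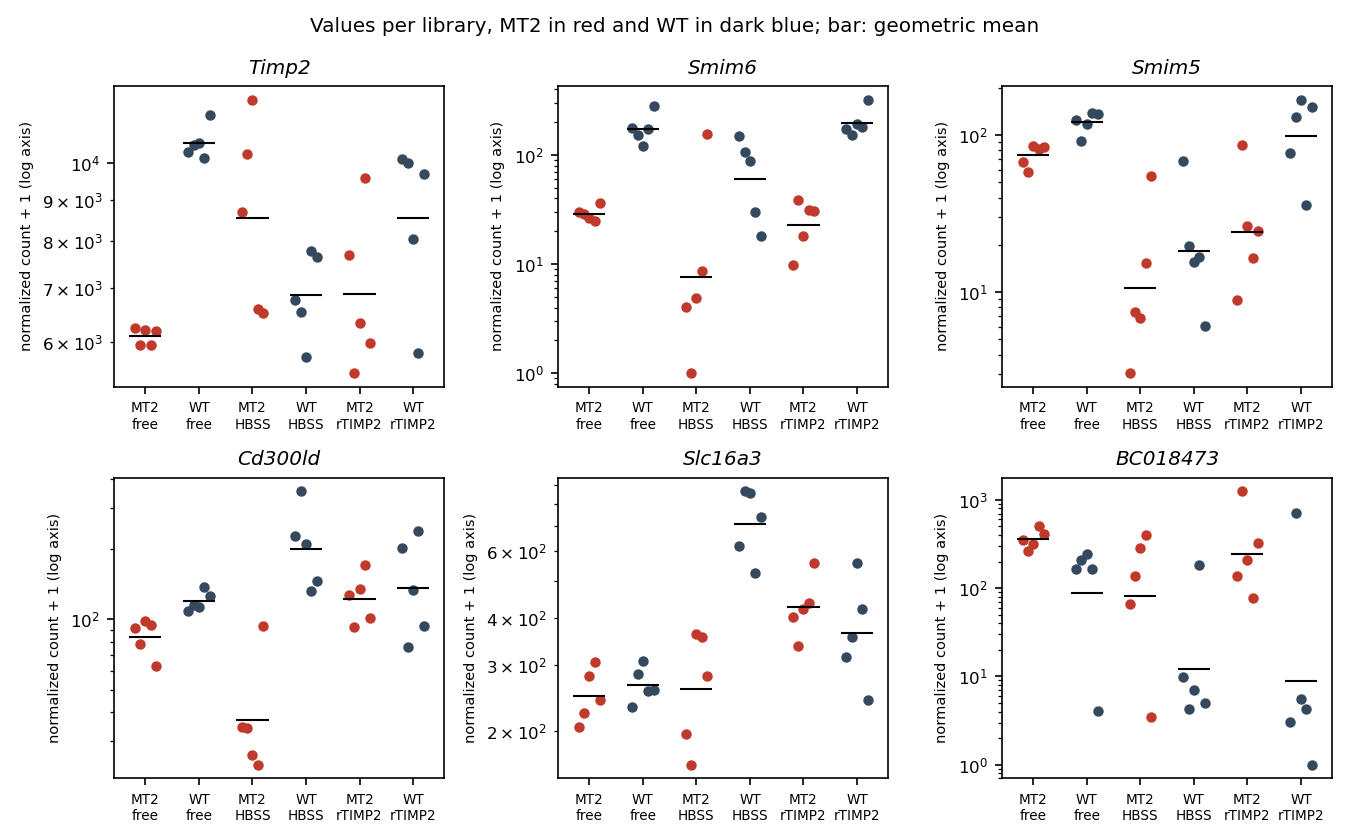
Normalized count plus 1 (log axis) of Timp2 and 5 neighbours in each library of the 6 groups, MT2 in red left of WT in dark blue, with the geometric mean as a bar. Smim6 lay between 23.7 and 35.6 in tumour-free MT2 lungs and between 120 and 279 in tumour-free WT lungs, and MT2 replicate 5 with an HBSS tumour stands at 154.

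The Cd300 receptors lie 3185 to 3411 kb below Timp2. Of 12 family genes listed, 11 were in the window and 8 passed the level rule, while Cd300c, Cd300ld2 and Cd300ld4 stayed under it. None of the 8 was called in any of the 6 comparisons with limma. In tumour-free lungs 1 of them was higher and 2 were lower at an unadjusted p under 0.05, beside 5.07% of all genes higher and 4.67% lower, and their median log2 fold change was -0.08, beside 0.00 over all genes tested. In treated lungs 5 of the 8 were higher at an unadjusted p under 0.05 and none was lower, beside 4.5% of all genes higher and 13.3% lower. The monocyte and interstitial macrophage markers summed to 13425 to 46237 in treated MT2 lungs and to 11132 to 35001 in treated WT lungs, and their part in this was not tested.

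Cd300ld, a receptor of the family carried by myeloid cells, read 91.0, 77.1, 97.0, 93.7 and 61.9 in tumour-free MT2 lungs, against 108, 114, 112, 137 and 125 in tumour-free WT lungs. The groups did not overlap, with a log2 fold change of -0.51 ± 0.13 (limma adjusted p = 0.35). In lungs with HBSS tumours it read 33.7, 33.3, 25.1, 22.8 and 92.6 in MT2 lungs, against 225, 352, 208, 131 and 145 in WT lungs. Again no MT2 value reached the lowest WT value, and replicate 5 was the highest of the MT2 lungs.

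The log2 fold change of Cd300ld in HBSS tumours was -2.44 ± 0.40 (unadjusted p = 5.7e-05, limma adjusted p = 0.35). Without MT2 replicate 5 it was -2.77 and passed the threshold (adjusted p = 0.036), and without MT2 replicate 5 and WT replicates 4 and 5 together it was -3.12 (adjusted p = 0.078). In treated lungs Cd300ld overlapped fully, between 91.7 and 170 in MT2 lungs and between 75.0 and 238 in WT lungs. Its average over the 3 conditions was -1.03 ± 0.19 (limma adjusted p = 0.076). That average passed the threshold in 11 alternative fits, some of which called many genes. With 1 library left out its adjusted p ran between 0.0015 and 0.17. The genotype difference was 1.93 log2 units lower in HBSS tumours than in tumour-free lungs by the test of the difference itself (-1.93 ± 0.44, limma adjusted p = 0.16). Without MT2 HBSS replicate 5 that difference was -2.26 and passed the threshold (adjusted p = 0.0076). Tumour state and the sex of the mice cannot be told apart in it.

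Cd300 receptors are carried by myeloid cells, whose markers were read in the same libraries. The 10 monocyte and interstitial macrophage markers, all of which reached 10, summed to 37131 to 51504 in MT2 lungs with HBSS tumours and to 21713 to 42666 in WT lungs with HBSS tumours. In tumour-free lungs the same sum was 12844 to 14818 in MT2 lungs and 13706 to 15833 in WT lungs. The 9 neutrophil markers, of which 7 reached 10 in MT2 lungs and 6 in WT lungs, summed to 458 to 3553 in MT2 lungs and to 1092 to 4258 in WT lungs with HBSS tumours. Apoe made up most of the first sum, at 26381 to 37419 in MT2 lungs and 12188 to 30304 in WT lungs with HBSS tumours. Ccr2, the chemokine receptor of monocytes, read 198 to 309 in MT2 lungs and 268 to 757 in WT lungs there, and the median log2 fold change of the 10 was -0.05. The part of these cells in the Cd300ld result was not tested.

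Cd300ld5 went the other way from Cd300ld in tumour-free lungs. It read 39.9, 22.7, 40.8, 53.3 and 40.7 in MT2 lungs, against 17.1, 18.4, 16.8, 22.5 and 7.45 in WT lungs. The groups just failed to overlap at 22.7 and 22.5, with a log2 fold change of 1.24 ± 0.28 (limma adjusted p = 0.25). Cd300a, an inhibitory receptor, had log2 fold changes of -0.36 ± 0.13 in tumour-free lungs, -0.85 ± 0.44 in HBSS tumours and 0.84 ± 0.30 in treated tumours, with adjusted p values of 0.42, 0.71 and 0.26 in limma. Cd300lb, an activating receptor, had -0.81 ± 0.26 in HBSS tumours and 0.85 ± 0.32 in treated tumours (limma adjusted p = 0.50 and 0.26), and its HBSS values, 59.2 to 119 in MT2 lungs and 120 to 181 in WT lungs, did not overlap. Cd300lb did not pass without the 3 HBSS libraries either (limma adjusted p = 0.29).

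**Figure D2:**
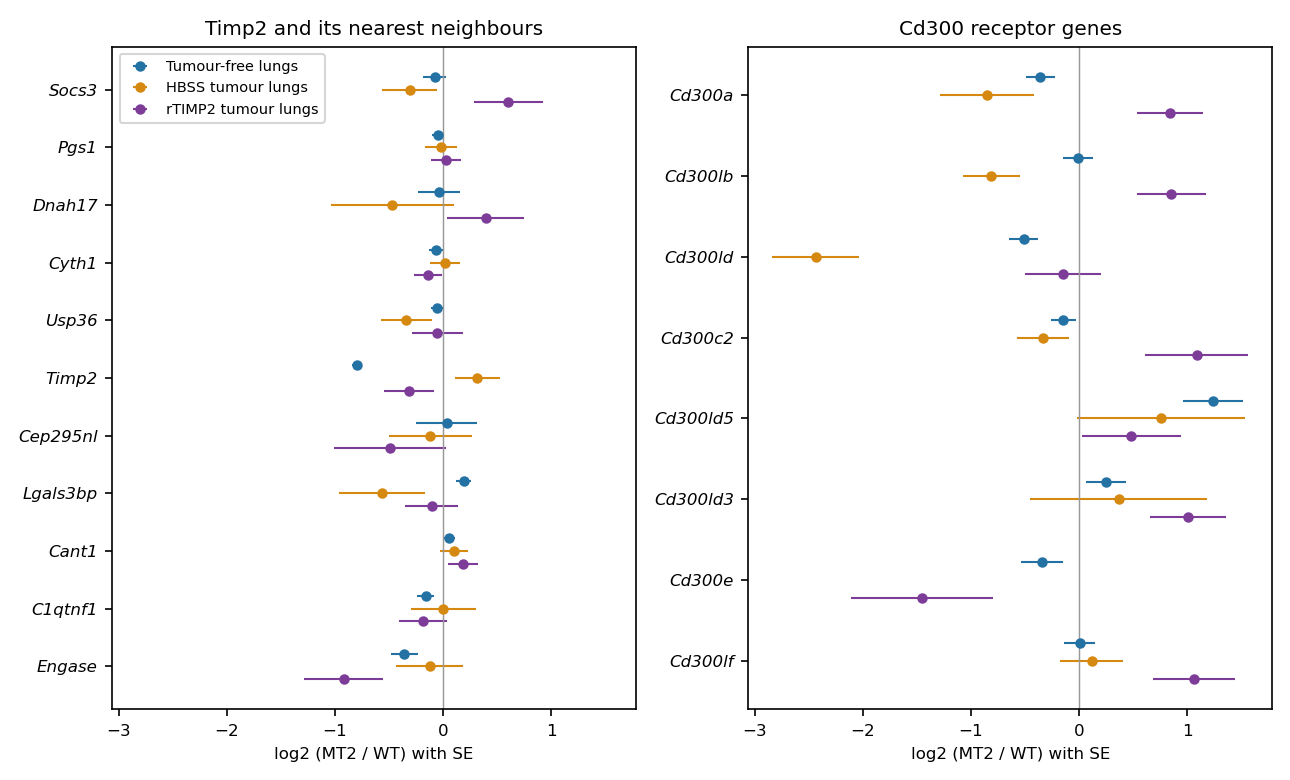
Log2 fold change of MT2 over WT with its SE (x axis) for Timp2 and the 5 neighbours nearest on each side (left) and for the 8 Cd300 receptor genes (right), in tumour-free lungs, HBSS tumour lungs and rTIMP2 tumour lungs. Timp2 stands at -0.80 in tumour-free lungs, and Cd300ld at -2.44 in HBSS tumours is the lowest point shown. Cd300e was under the level filter in HBSS tumours and has no point there.

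The 5 neighbours nearest to Timp2 on each side showed no call in any comparison. Below Timp2 these were Socs3, a feedback inhibitor of cytokine signals, Pgs1 of cardiolipin synthesis, the axonemal dynein Dnah17, the Arf exchange factor Cyth1 and the deubiquitinase Usp36. Above its start were Cep295nl, which lies inside the Timp2 span with no shared exonic base, Lgals3bp, the galectin-3 binding protein, the nucleotidase Cant1, the adiponectin-like C1qtnf1 and the glycosidase Engase. In tumour-free lungs their log2 fold changes ran between -0.36 for Engase and 0.19 for Lgals3bp.

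Usp36, whose start lies 41.4 kb from that of Timp2, averaged 622 ± 24.5 in tumour-free MT2 lungs and 646 ± 16.6 in tumour-free WT lungs (SD, n = 5 each). Engase averaged 131 ± 21.1 in tumour-free MT2 lungs and 168 ± 24.2 in tumour-free WT lungs, a log2 fold change of -0.36 ± 0.13 (limma adjusted p = 0.42). Lgals3bp read 1894 to 2245 in tumour-free MT2 lungs and 1634 to 2035 in tumour-free WT lungs, and the groups overlapped (0.19 ± 0.07, limma adjusted p = 0.41). All 10 had smaller log2 fold changes in tumour-free lungs than Smim6, 2389 kb away.

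In 10 neighbours MT2 and WT values did not overlap in tumour-free lungs, or 4.78% of the 209 tested, where 1.74% of all genes tested did. The 5 lower ones were Smim6, Smim5, Cd300ld, Mettl23 and Rbfox3, and the 5 higher ones were Cd300ld5, Grin2c, Rhbdf2, BC018473 and St6galnac1, where 0.811% of all genes tested were lower and 0.93% higher without overlap. Of these, 9 lay 1458 to 3319 kb below Timp2, and Rbfox3 lay 189 kb above it. Smim6, Cd300ld and the listed Cd300ld5 were named with earlier results of these data known, and the others after their values were seen. St6galnac1 passed the level filter of the tumour-free fit only through the MT2 lungs, so its lack of overlap there was fixed in advance.

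BC018473, annotated as an antisense RNA gene, read 349, 263, 319, 509 and 408 in tumour-free MT2 lungs, against 163, 206, 243, 166 and 3.05 in tumour-free WT lungs. WT replicate 5 stood far under the other WT lungs, and the log2 fold change was 2.02 ± 1.12 (limma adjusted p = 0.58). In HBSS tumours it read 65.4, 135, 285, 396 and 2.50 in MT2 lungs, against 8.97, 3.28, 6.06, 183 and 4.03 in WT lungs. In treated tumours it read 136, 1255, 207, 76.7 and 325 in MT2 lungs, against 2.03, 716, 4.59, 3.26 and 0 in WT lungs.

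Values of BC018473 therefore fell into a low range, at or under 8.97, and a high range, at or over 65.4, with nothing between. The low range held 1 of the 15 MT2 libraries and 9 of the 15 WT libraries. In the 14 lungs of the subcutaneous model it was listed between 0 and 4.14. The average over the 3 conditions was 3.19 ± 0.83 (limma adjusted p = 0.12). It passed the threshold without the 3 HBSS libraries (3.86, adjusted p = 0.0282), in a fit that called 4.33% of all genes. It also passed in 3 of the fits that left out 1 library. These were without MT2 rTIMP2 replicate 2, where 26% of all genes were called, WT rTIMP2 replicate 2 or WT rTIMP2 replicate 4.

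St6galnac1, a sialyltransferase gene 1536 kb below Timp2 and next to BC018473 at 1549 kb, read 16.7, 14.5, 16.3, 22.6 and 20.6 in tumour-free MT2 lungs, against 3.50, 8.45, 7.48, 9.75 and 1.02 in tumour-free WT lungs. The same WT replicate 5 was the lowest, and the log2 fold change was 1.66 ± 0.40 (limma adjusted p = 0.32). Every WT value was under 10 and every MT2 value over it. St6galnac1 thus entered this fit only through the MT2 lungs, and the fit does not test its direction. In HBSS tumours St6galnac1 read 2.04, 6.45, 5.42, 12.9 and 0 in MT2 lungs, against 0.897, 0, 0, 3.14 and 0 in WT lungs. It was under the level filter there, and it gives no fold change in tumour lungs taken alone.

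Grin2c, an NMDA receptor subunit gene, read 90.7 to 164 in tumour-free MT2 lungs and 24.4 to 82.8 in tumour-free WT lungs (1.16 ± 0.29, limma adjusted p = 0.35). Mettl23, a methyltransferase gene, read 119 to 160 in tumour-free MT2 lungs and 163 to 202 in tumour-free WT lungs (-0.43 ± 0.10, limma adjusted p = 0.28). It shares 23.4% of its exonic bases with Jmjd6 and Srsf2 on the other strand. With the strand of counting not given, the Mettl23 values could hold reads of those genes. Rbfox3, a splicing factor gene known from neurons, read 21.8 to 44.6 in tumour-free MT2 lungs and 47.9 to 61.4 in tumour-free WT lungs (-0.58 ± 0.18, limma adjusted p = 0.39). Rhbdf2, the trafficking partner of the sheddase ADAM17, read 758 to 873 in tumour-free MT2 lungs and 651 to 749 in tumour-free WT lungs (0.17 ± 0.06, limma adjusted p = 0.41). None of the 9 beside Smim6 passed the threshold over all genes.

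**Figure D3:**
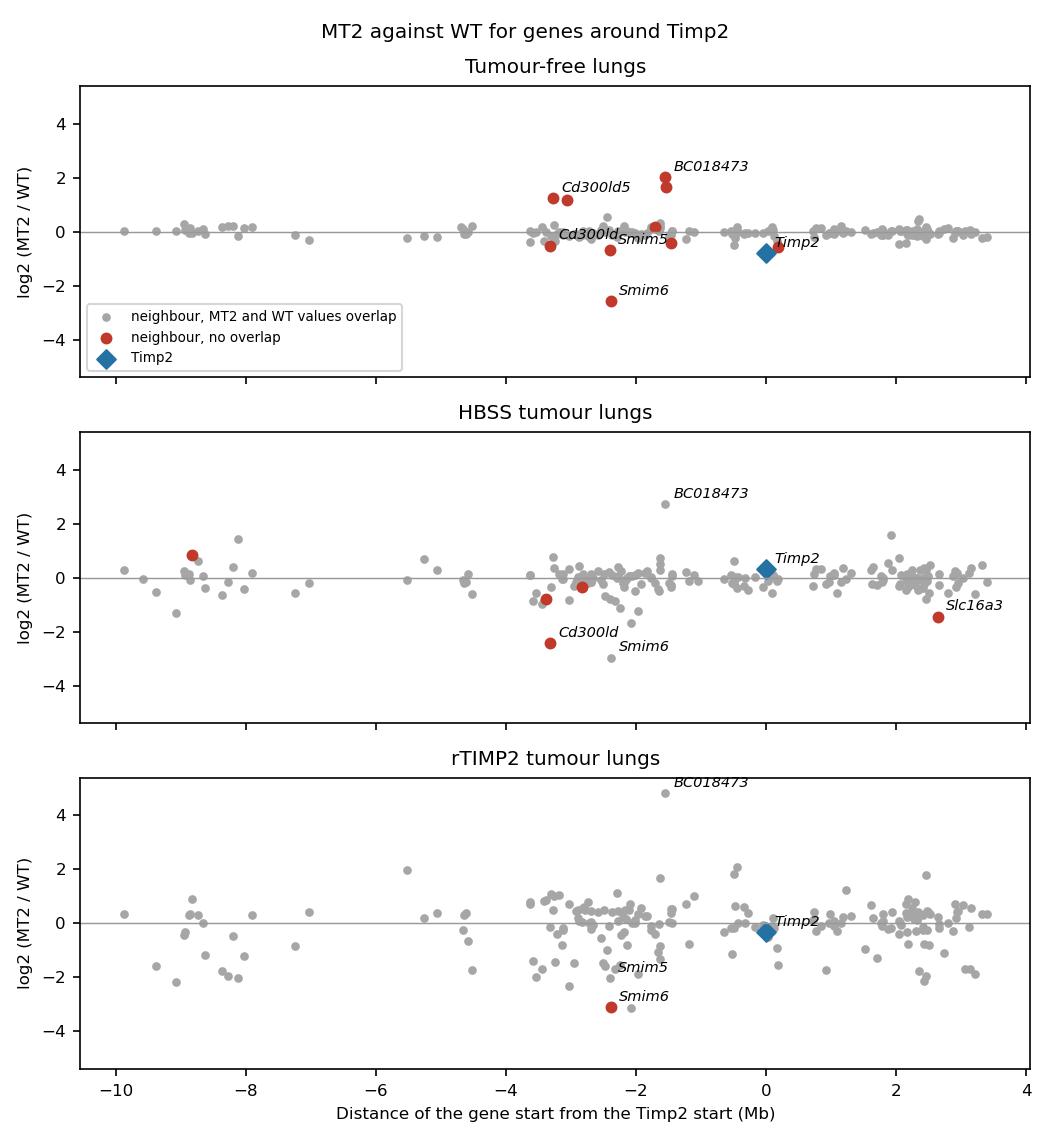
Log2 fold change of MT2 over WT (y axis) against the distance of each gene start from that of Timp2 in Mb (x axis), in tumour-free lungs, HBSS tumour lungs and rTIMP2 tumour lungs. Each point is a neighbour tested in that condition, red where MT2 and WT values do not overlap, and the diamond is Timp2. In tumour-free lungs 10 of 209 neighbours are red and most others lie near 0, and the spread is wider in the tumour conditions.

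By distance, neighbours with an unadjusted p under 0.05 in tumour-free lungs were 30 of 209 (14.4%), beside 9.74% of all genes tested, with 11 higher (5.07% of all genes) and 19 lower (4.67% of all genes) in MT2 lungs. They were 2 of 16 genes between 10 and 8 Mb below Timp2, 0 of 3 between 8 and 6 Mb and 0 of 9 between 6 and 4 Mb. Nearer to Timp2 they were 6 of 20 genes between 4 and 3 Mb below it and 7 of 40 between 3 and 2 Mb. They were 5 of 23 between 2 and 1 Mb and 0 of 14 in the last 1 Mb below Timp2. Above Timp2 they were 3 of 13 in the first 1 Mb, 0 of 18 in the second and 7 of 53 beyond 2 Mb, the last 7 all lower in MT2. On the rest of chromosome 11 they were 98 of 1116 genes (8.78%), and on other chromosomes 1504 of 15448 (9.74%). The median size of the log2 fold change was 0.0865 for neighbours and 0.0878 for all genes. Neighbours share mice, libraries and chromosome segments and are not independent of each other.

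**Figure D4:**
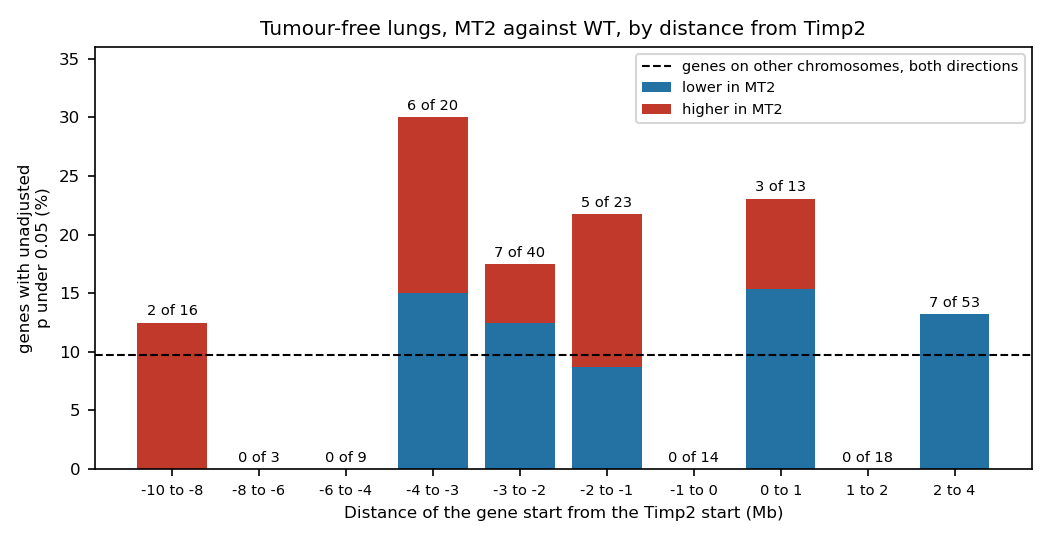
Percent of neighbours with an unadjusted p under 0.05 for MT2 against WT in tumour-free lungs (y axis), by distance from Timp2 in Mb (x axis), split into lower (blue) and higher (red) in MT2, with the level on other chromosomes (9.74%) as a dashed line. The bin 4 to 3 Mb below Timp2 holds 6 of 20, and the bin next to Timp2 on that side holds 0 of 14.

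In HBSS tumours none of 202 neighbours tested was called, nor was any of 16299 genes (0%), and 12 neighbours had an unadjusted p under 0.05 in limma (5.94%, beside 7.41% of all genes). There 5 neighbours did not overlap (2.48%, beside 1.61%), with Arsg higher and Cd300lb, Cd300ld, Armc7 and Slc16a3 lower in MT2, beside 0.804% of all genes higher and 0.81% lower. In treated tumours none of 205 neighbours and none of 16858 genes (0%) was called, while 40 neighbours had an unadjusted p under 0.05 in limma (19.5%, beside 17.8%). The 1 neighbour without overlap there was Smim6 (0.488%, beside 0.237%). Shares of this size next to those of all genes do not set the neighbours apart in tumour lungs.

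Slc16a3, which codes for the lactate exporter MCT4 of glycolytic cells, lies at chr11:120948480-120960868 on the plus strand, 2647 kb above Timp2. In HBSS tumours it read 196, 162, 361, 354 and 279 in MT2 lungs, against 617, 864, 853, 526 and 737 in WT lungs. Every MT2 value was under every WT value. The log2 fold change was -1.45 ± 0.25 (unadjusted p = 9.1e-05, limma adjusted p = 0.37), and the adjusted p ran between 0.13 and 0.78 when 1 library was left out.

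Slc16a3 did not separate the genotypes in the other conditions. It read 205 to 305 in tumour-free MT2 lungs and 231 to 306 in tumour-free WT lungs (-0.10 ± 0.11), and 335 to 559 in treated MT2 lungs and 241 to 558 in treated WT lungs (0.23 ± 0.24). The difference between the HBSS and the tumour-free genotype effect was -1.36 ± 0.29 (limma adjusted p = 0.12), and that between the treated and the HBSS effect was 1.68 ± 0.35 (limma adjusted p = 0.67). Timp2 itself had a difference of 1.12 ± 0.20 between HBSS and tumour-free lungs (limma adjusted p = 0.089). In differences between HBSS and tumour-free lungs, tumour state and the sex of the mice cannot be told apart. Without MT2 HBSS replicate 4 the first Slc16a3 difference was -1.47 and passed the threshold (adjusted p = 0.0334). That of Timp2 passed without MT2 HBSS replicate 4, without MT2 HBSS replicate 5 or without WT HBSS replicate 5 (adjusted p = 0.0125, 0.00767 and 0.0411). Without the 3 HBSS libraries together the differences were -1.51 for Slc16a3, -2.61 for Cd300ld and 1.33 for Timp2, all past the threshold, while Smim6 had -2.37 (adjusted p = 0.061). No neighbour was called in the first test of 216, where 4 of 17927 genes were (0.0223%) and 21 neighbours had an unadjusted p under 0.05 (beside 9.91% of all genes), nor in the second of 214, where no gene was called (0%) and 14 neighbours had an unadjusted p under 0.05 in limma (beside 5.9% of all genes).

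Arsg, a lysosomal sulfatase gene 8828 kb below Timp2 named after its values were seen, was the non-overlapping neighbour that was higher in HBSS tumours. It read 296, 191, 309, 184 and 182 in MT2 lungs, against 74.4, 151, 169, 112 and 159 in WT lungs, with a log2 fold change of 0.82 ± 0.27 (limma adjusted p = 0.52), or 0.94 without the 3 HBSS libraries (adjusted p = 0.31). In tumour-free lungs it read 77.1 to 112 in MT2 lungs and 85.2 to 106 in WT lungs, and the groups overlapped.

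Other lists of neighbours held no call in any of the 6 comparisons. The 14 lipid and sugar genes tested, among them Fasn and Sphk1, had a median log2 fold change of -0.05 in tumour-free lungs, beside 0.00 over all genes, and none had an unadjusted p under 0.05. The 5 ABCA transporters had a median of 0.16 in tumour-free lungs and -1.78 in treated tumours, where 3 were lower at an unadjusted p under 0.05 (beside 13.3% of all genes) and the lung markers were uneven as given above. The 5 proliferation genes had a median of -0.34 in HBSS tumours and 0.91 in treated tumours, where 1 of 5 MT2 libraries and 3 of 5 WT libraries had a reporter under 1. The secreted, matrix and adhesion list of 8 and the immune and signalling list of 12 had medians of -0.04 and -0.02 in tumour-free lungs.

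Many neighbours separated tumour lungs from tumour-free lungs in both genotypes, read here as groups without overlap and without a test. In MT2 lungs 61 of 209 neighbours were higher and 52 were lower with HBSS tumours than tumour-free, beside 26.6% and 31.4% of all genes. In WT lungs 58 of 210 were higher and 54 were lower, beside 26% and 31.1%. Sox9, a developmental transcription factor, was 5.13 log2 units higher on average with HBSS tumours in MT2 lungs and 4.97 higher in WT lungs. Birc5, the survivin gene of mitosis and survival, was 3.68 log2 units higher in MT2 lungs and 4.23 higher in WT lungs. Tk1, a thymidine kinase of dividing cells, read 387 to 1176 in MT2 lungs with HBSS tumours, against 62.8 to 88.2 in tumour-free MT2 lungs. RNA of the injected line and of the host cannot be told apart in these libraries. Between HBSS tumour lungs and tumour-free lungs, tumour state and the sex of the mice cannot be told apart either. In the 4 treated libraries with a reporter under 1, which read as male, Sox9 read 9.40 to 56.2. Birc5 read 30.3 to 81.6 there, and Tk1 read 69.9 to 133. The part of sex in these values was not tested.

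Foxj1, the master gene of motile cilia, read 20.4 to 396 in MT2 lungs with HBSS tumours, against 1306 to 1538 in tumour-free MT2 lungs. In WT lungs it read 41.4 to 1366 with HBSS tumours and 1246 to 1769 without tumours, and these WT groups overlapped. Cbr2, a carbonyl reductase abundant in club cells and the neighbour with the highest tumour-free level per kb of exon, read 1203 to 18102 in MT2 lungs with HBSS tumours, against 41799 to 54047 in tumour-free MT2 lungs. The summed lung markers were lower in the same libraries, as given above, and their part in these values was not tested. With rTIMP2 against HBSS, 3 of 200 neighbours were higher and 2 lower without overlap in MT2 lungs (beside 1.11% and 0.96% of all genes), and 3 of 206 were higher and 8 lower in WT lungs (beside 2.5% and 2.44%). Cd7, a gene of T and natural killer cells, was higher in treated lungs than in HBSS tumours of both genotypes. It read 14.1 to 69.8 in treated MT2 lungs against 2.04 to 6.66 in MT2 lungs with HBSS. In WT it read 35.9 to 60.4 in treated lungs against 1.01 to 27.2 with HBSS. The highest treated MT2 value was that of replicate 2, with a reporter under 1, and the others read 14.1 to 18.4. Tumour-free lungs read 37.0 to 62.8 in MT2 and 27.8 to 63.4 in WT. The part of tumour RNA in the Cd7 values was not tested.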

How the data were processed

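RNA sequencing of 30 lung libraries was read from the table of the intratracheal model, and the 14 libraries of the subcutaneous model served for levels only. The deposited values are a normalized signal, named normalized counts by the authors. Partek, Bowtie2, STAR and DESeq2 with build mm10 are named in the submitters' processing notes, with no versions, annotation release or strand of counting given in the sources used here. Between 78.9 and 84.5% of low values per library were whole multiples of a step (tolerance 0.02, up to 20 steps), too few to recover reads, so no count model was fitted. Groups came from the sample titles. Deposited starts and ends match GENCODE vM21 for 214 of 217 neighbours.

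Linear models were run per comparison in limma (version 3.58.1, under R 4.3.3), using lmFit and a trended, robust eBayes on log2(value + 1), over genes with 10 or more in at least 5 libraries of the fit, with Benjamini-Hochberg adjustment over all genes tested and a threshold of 0.05. Fold changes are on the log2(value + 1) scale, which understates the change of low genes. The labels do not state separate animals for every library, so p-values measure the spread between these samples. Replicate numbers did not pair the libraries (same-number correlations between -0.52 and 0.69).

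The window, the lists and the named genes were chosen with earlier results of these data known. Named were Timp2, Smim6, Cd300ld, Slc16a3, the 5 neighbours nearest on each side, called neighbours by size, and the detected Cd300 genes, with others named after their values were seen. One gene list is not reported here. Motifs, overlaps and identities were computed in Python 3.11.15 with Biopython 1.88. Scripts were tested on simulated data. Alternatives were a pseudocount of 8, no level filter, quantile normalization, a replicate block, 1 fit over all groups, library weights and leaving out libraries.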

Additional observations from a re-analysis of the deposited data

Results flagged for a closer look

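In 234 groups of 5 libraries (Timp2 and the 38 named neighbours in the 6 groups), 37 had 1 library whose gap to the nearest of the others exceeded 0.71 of the range of the group. For independent normal values about 1 in 20 such groups would do so. The values here are normalized counts, not log values, of genes that share libraries, so that rate need not hold. MT2 rTIMP2 replicate 2, whose reporter was listed at 0.983, was the highest of its group for Cd300e (50.1), Grin2c (45.2), Myo15b (135), Smim5 (85.5), Foxj1 (2499), BC018473 (1255), Cbr2 (67967) and Cd7 (69.8) and the lowest for Tk1 (102) and Birc5 (81.6). The library labelled MT2 HBSS replicate 5 was the highest of its group for Cd300ld (92.6), Smim6 (154), Smim5 (54.3), Sap30bp (1046) and Mettl23 (618) and the lowest for Usp36 (411). MT2 HBSS replicate 3 was the highest of its group for Socs3 (2616) and Lgals3bp (2103). MT2 HBSS replicate 4 was the highest of its group for Myo15b (20.9) and Cd7 (6.66). WT HBSS replicate 1 was the highest of its group for Smim5 (67.3), Foxj1 (1366) and Cbr2 (27025). WT HBSS replicate 3 was the highest of its group for Cd300lf (694). WT HBSS replicate 4 was the highest of its group for BC018473 (183) and St6galnac1 (3.14). WT rTIMP2 replicate 2 was the highest of its group for Myo15b (86.9), BC018473 (716) and St6galnac1 (19.1). WT rTIMP2 replicate 4 was the highest of its group for Cd300c2 (399.6), Sap30bp (847), Mettl23 (454) and Tk1 (903). WT rTIMP2 replicate 5 was the highest of its group for Smim6 (322). Tumour-free WT replicate 1 was the highest of its group for Dnah17 (57.8). Tumour-free WT replicate 3 was the lowest of its group for Sap30bp (449). Tumour-free WT replicate 4 was the highest of its group for Cd300c2 (208).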

How the results depend on the processing

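The count of neighbours called in tumour-free lungs stayed at 1 under every alternative but 1 fit of all 6 groups, which gave 0. In HBSS tumours it was 2 with library weights (Cd300ld and Slc16a3, 0.99%, beside 0.0368% of all genes). It was 3 with 1 fit of all groups (1.38%, beside 0.735%). With 1 library left out it was 0 to 1, the 1 without MT2 HBSS replicate 5 (0.5%, beside 0.00624%). In treated tumours it was 141 with library weights (68.8%, beside 67.6% of all genes) and 0 to 68 with 1 library left out, the 68 without MT2 rTIMP2 replicate 2 (33.7%, beside 34.4%). In the average over 3 conditions it was 101 with library weights (46.5%, beside 48.7%), 16 without MT2 HBSS replicate 5 and WT HBSS replicates 4 and 5 (7.41%, beside 4.33%, an alternative chosen after seeing the data) and 1 to 54 with 1 library left out, 54 without MT2 rTIMP2 replicate 2 (24.9%, beside 26%) and 33 without WT rTIMP2 replicate 4 (15.2%, beside 14.8%). For the difference by tumour the count was 2 with library weights and 0 to 1 with 1 library left out. These counts are given without the share of all genes, so they do not set the neighbours apart. Without the same 3 HBSS libraries the count was 6 (2.83%, beside 2.73%). For the difference by rTIMP2 it was 103 with library weights (48.1%, beside 45.7%) and 0 to 0 with 1 library left out. The cause of these changes in counts was not tested. With the replicate block the counts of neighbours called were 1 in tumour-free lungs, 1 in the average and 0 in the other 4 comparisons, so it changed no count.

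Log2 values that changed sign were Cd300lb in tumour-free lungs (0.00839 with quantile normalization, 0.018 with library weights, -0.10 to 0.066 with 1 library left out), Cd300ld in treated tumours (0.040, 0.46 and -0.36 to 0.056 in the same settings), the Smim6 difference by tumour (0.48 with a pseudocount of 8, 0.15 with quantile normalization, -1.47 to 0.35 with 1 library left out) and by rTIMP2 (1.08 with library weights, -0.87 to 0.95 with 1 library left out). With 1 library left out, tumour-free values ran from -0.14 to 0.011 for Socs3, -0.11 to 0.11 for Dnah17, -0.11 to 0.23 for Cep295nl and -0.095 to 0.080 for Cd300lf. None of these was called. Depth limits neighbours near 10, where 1 read moves the log2 value most.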
